A study of Mus musculus with 8 samples.

Results

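The mitochondrial ribosomal proteins are the nuclear-encoded proteins of the ribosome that works inside mitochondria. Their genes were taken as all protein-coding genes with an Ensembl 96 mouse symbol of Mrpl or Mrps followed by a number, which gave 78 genes of 22028 protein-coding genes and 36047 genes with a transcript in the tables. Of these, 49 carried an Mrpl symbol (large subunit) and 29 an Mrps symbol (small subunit), and they lay on 17 chromosomes. A further 5 genes with a matching symbol were pseudogenes and were not counted as members. RNA was measured by RNA-Seq in muscle stem cells (MuSCs), the resident progenitors of skeletal muscle, from 5- to 6-month-old male Pax7-nTnG mice fed a diet without vitamin A (VA-free, 3 mice) or normal chow (control, 2 mice) for 8 weeks. All of these mice carried the Pax7CreERT2 driver with the Rosa26 nTnG reporter, in which tamoxifen turns the nuclear label of Pax7-expressing cells from TdTomato to GFP, and GFP-positive cells of the gastrocnemius and quadriceps were sorted. The VA-free diet was a custom diet, while control mice stayed on normal chow, so the comparison sets whole diets against each other. An effect of vitamin A on the RNA cannot be told apart from that of any other difference between the diets.

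The mitoribosome has a small subunit, which holds the mRNA and reads its codons, and a large subunit, which joins amino acids and passes the growing chain out through an exit tunnel. It makes only the few proteins encoded in mitochondrial DNA, all of them core subunits of the respiratory chain and ATP synthase, so that every mitoribosomal protein has to be imported from the cytosol. Some of these proteins descend from bacterial ribosomal proteins, and the others were added in the course of eukaryotic evolution.

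Each library was named by its mouse and by a letter for the technical replicate split from its RNA. VA-free mice 1 and 2 gave a single library each (1B and 2A), and VA-free mouse 3 and both control mice gave a pair (A and B). The 8 libraries held between 44831232 and 88650428 estimated counts, and technical replicates of a mouse were added. Since the control diet had 2 mice, its spread rested on 1 difference between animals. The standard errors below do not show the spread between libraries A and B of a mouse, which was wide for control mouse 2. All 12 MuSC markers were called higher on the VA-free diet, 11 of them also with the trend by transcript length removed (described below; Pax7 went from a log2 fold change of 0.76 to 0.14 and was not called), and their summed level was 6813 to 7804 CPM (counts scaled to the size of the library) in the VA-free libraries against 1937 to 4377 in the control libraries. Markers of other cells were lower, with 10 of 10 endothelial genes called lower (summed level 255 to 348 against 1278 to 3038 CPM), 7 of 7 Schwann cell genes (474 to 502 against 1050 to 1337 CPM) and 5 of 6 tenocyte genes (40.1 to 66.1 against 606 to 1099 CPM). For macrophages 4 of 10 genes were called lower (27.7 to 165 against 192 to 963 CPM), for erythroid cells 4 of 5 (28.8 to 243 against 1302 to 1909 CPM), for myofibers 6 of 11 (354 to 449 against 519 to 601 CPM), and for pericytes and smooth muscle 5 of 8 with 1 higher (1704 to 1997 against 2728 to 3316 CPM). Of the fibro-adipogenic progenitor genes 5 of 9 were called lower and 1 higher, while their summed level was 16436 to 19091 CPM against 9411 to 14538 CPM. For scale, 22.5% of all genes tested were called lower and 18.9% higher. No marker of MuSCs, endothelial cells, Schwann cells or tenocytes was at 0 in any library, and the macrophage marker Mrc1 was at 0 in at least 1. The part of other cell types in the results below was not tested, and in bulk RNA fewer cells of a type and less RNA per cell cannot be told apart.

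The mitoribosomal mRNAs took a smaller part of the RNA on the VA-free diet. Their summed level was 2028 CPM in VA-free 1B, 2062 CPM in 2A, 2052 CPM in 3A and 1981 CPM in 3B. In the control libraries it was 3921 CPM in 1A, 3566 CPM in 1B, 5673 CPM in 2A and 2988 CPM in 2B. The VA-free libraries lay close together and below every control library, whereas the control libraries were spread widely, with both extremes in the same mouse. Per mouse the sum was 2074, 2066 and 2041 CPM on the VA-free diet and 3885 and 4111 CPM on the control diet. Both subunits took part, since the Mrpl genes summed to 1.76 to 1.82 times the Mrps genes in the VA-free libraries and to 1.83 to 1.93 times in the control libraries.

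**Figure D1:**
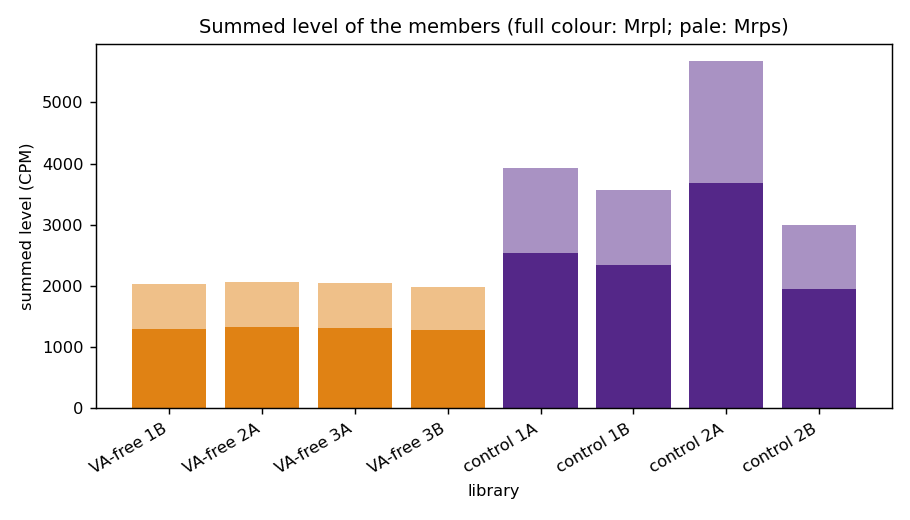
Summed level of the 78 mitoribosomal protein genes in each library (y axis, TMM-normalized CPM; x axis, library), with the 49 Mrpl genes in full colour and the 29 Mrps genes in pale colour, VA-free libraries in orange and control libraries in purple. The 4 VA-free libraries stand between 1981 and 2062 CPM, and the control libraries between 2988 and 5673 CPM.

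All 78 members passed the expression filter and were tested. The test was edgeR's quasi-likelihood test on the 5 mice with Benjamini-Hochberg adjustment over 17997 genes, a log2 fold change sets VA-free mice over control mice, and "called" means an adjusted p under 0.05. Of the members, 67 were called lower on the VA-free diet, where 22.5% of all genes tested were. Only Mrps5 was called higher, where 18.9% of all genes were, and 10 members were not called. The log2 fold change was below 0 for 76 members, with a median of -0.98 (quartiles -1.31 and -0.64) beside 0.00 for all genes tested, and it was under -1 in 37 of the called members. No overlap between VA-free and control mice was seen for 71 members, as for 63.3% of all genes. In 67 members every VA-free library lay below every control library, as for 21.4% of all genes. With the trend by transcript length removed, as described below, 33 of the 67 lower calls were lost. The order of the members' abundance was largely kept, with a Spearman correlation of 0.88 across the 78 genes between the mean TPM (a level per transcript length) of the diets.

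**Figure D2:**
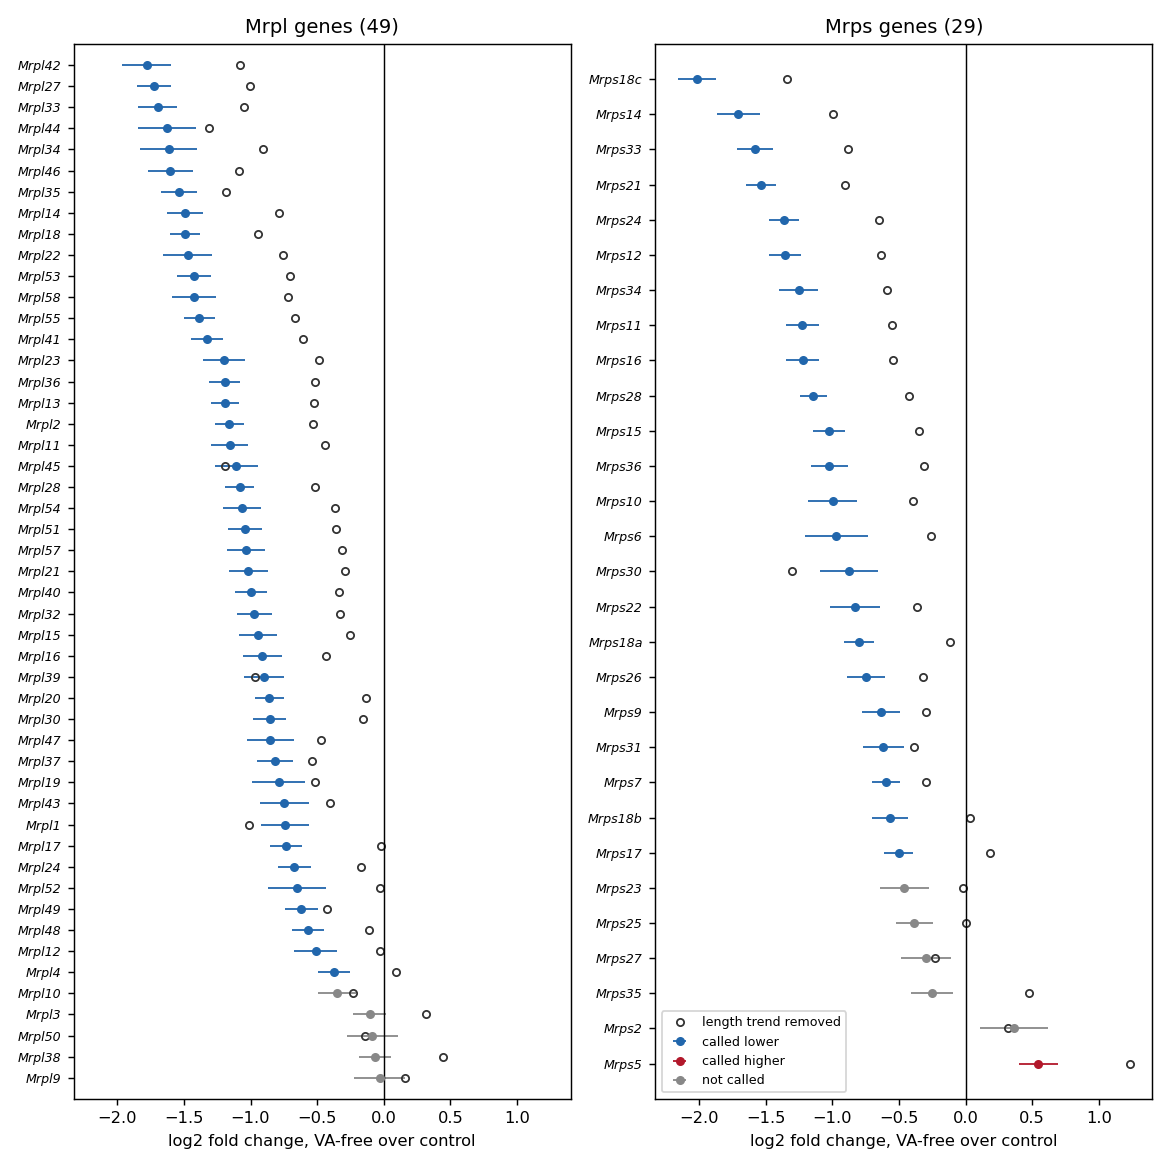
Log2 fold change of each member (x axis, VA-free over control; y axis, gene), with Mrpl genes on the left and Mrps genes on the right. Filled points are edgeR estimates with bars of 1 standard error, blue where called lower, red where called higher and grey where not called, and open circles are the estimates after the trend with transcript length was removed; 67 filled points are blue, and most open circles lie nearer to 0.

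Among the 30 large-subunit proteins with bacterial relatives, 27 were called lower and none higher, with a median of -0.99. Mrpl33, a small protein of this group, had the highest level per length of all members, with a mean of 256 TPM. It was at 41.1, 37.7 and 41.5 CPM in the VA-free mice and at 111 and 150 CPM in the control mice. The VA-free mice were alike and below both control mice, and Mrpl33 fell 3.24-fold (log2 fold change -1.70 ± 0.15 SE, edgeR adjusted p = 0.000398). Mrpl27, which lies by the peptidyl transferase center where amino acids are joined, was at 28.2, 30.8 and 30.5 CPM against 88.5 and 108 CPM. It fell 3.30-fold (log2 -1.72 ± 0.13 SE, edgeR adjusted p = 0.000269). Mrpl28 was at 60.2, 64.4 and 64.9 CPM against 126 and 141 CPM, again without overlap. Its log2 fold change was -1.08 ± 0.11 (SE, edgeR adjusted p = 0.00057). Mrpl17, the third most abundant member at 185 TPM, was at 56.0, 63.9 and 53.5 CPM against 99.97 and 92.4 CPM. This was a fall of 1.66-fold, smaller than that of Mrpl33 or Mrpl27, and the call was lost with the length trend removed (log2 -0.02).

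The 6 proteins of the polypeptide exit tunnel were all called lower, with a median of -1.15, and 3 of them were with the length trend removed, with a median of -0.62. Mrpl45, which sits at the mouth of the tunnel and ties the ribosome to the inner membrane, was at 21.6, 21.9 and 21.4 CPM in the VA-free mice and 39.4 and 53.9 CPM in the control mice. The 3 VA-free values were almost equal, and Mrpl45 fell 2.15-fold (log2 -1.11 ± 0.16 SE, edgeR adjusted p = 0.00194). Mrpl22 was at 10.3, 8.22 and 9.70 CPM against 22.9 and 29.4 CPM, and Mrpl24 at 39.6, 40.9 and 42.8 CPM against 71.8 and 59.1 CPM. Both fell, by 1.47 and 0.67 on the log2 scale (edgeR adjusted p = 0.00118 and 0.00579). Mrpl22 was still called with the length trend removed (-0.76), and Mrpl24 was at -0.17 and not called (edgeR adjusted p = 0.347).

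In the central protuberance, the knob of the large subunit that faces the small subunit, 7 of 8 members were called lower, with a median of -1.40. Mrpl18, the relative of the bacterial protein that binds 5S rRNA, was at 22.1, 22.8 and 22.5 CPM against 65.0 and 61.1 CPM. It fell 2.81-fold (log2 -1.49 ± 0.11 SE, edgeR adjusted p = 0.000269). Mrpl48 was at 76.5, 82.2 and 77.1 CPM against 106 and 127 CPM (log2 -0.57 ± 0.12 SE, edgeR adjusted p = 0.00936), and at -0.11 and not called with the length trend removed. Mrpl38 of the same knob was at 33.2, 31.3 and 31.9 CPM against 35.0 and 32.2 CPM, so that the diets overlapped and the gene was not called (log2 -0.07 ± 0.12 SE, edgeR adjusted p = 0.704).

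In the stalks, the flexible arms that receive translation factors, 5 of 6 members were called lower. Mrpl12, the stalk protein that contacts the elongation factors, was at 43.1, 38.8 and 41.8 CPM against 68.5 and 49.2 CPM. It was just past the threshold (log2 -0.51 ± 0.16 SE, edgeR adjusted p = 0.0397) and was called under 13 of 26 other settings of the analysis. Mrpl54 fell from 48.6 and 43.7 CPM to 23.3, 19.3 and 23.6 CPM (log2 -1.07 ± 0.14 SE, edgeR adjusted p = 0.00148), but with the length trend removed it was at -0.37 and not called (edgeR adjusted p = 0.0847). Mrpl10, which carries Mrpl12 on the ribosome, was at 34.1, 35.1 and 35.2 CPM against 50.01 and 38.8 CPM and was not called (log2 -0.35 ± 0.14 SE, edgeR adjusted p = 0.0876). Mrpl4 and Mrpl9 were also among the members with small differences. Mrpl4 was at 70.0, 69.3 and 71.4 CPM against 100.3 and 81.7 CPM, with an edgeR adjusted p of 0.0466, and was called under 12 of 26 other settings. Mrpl9 was at 29.3, 29.97 and 28.4 CPM, between its control values of 36.1 and 23.6 CPM.

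Of the 20 large-subunit proteins without a bacterial counterpart, 18 were called lower and none higher, with a median of -1.01. Mrpl42 had the highest mean level in CPM of all members and the second highest TPM (246). It was at 52.0, 47.4 and 51.3 CPM in the VA-free mice and at 136 and 209 CPM in the control mice. Even the lower control mouse was above all VA-free mice by more than their range, and Mrpl42 fell 3.43-fold (log2 -1.78 ± 0.18 SE, edgeR adjusted p = 0.000582). Mrpl37 was at 46.6, 50.8 and 46.5 CPM against 75.1 and 93.9 CPM and fell 1.76-fold. Mrpl50 was not called, with 29.4, 31.3 and 26.2 CPM between its control values of 24.8 and 36.7 CPM. Mrpl44, which contains an RNase III-like fold, had the lowest TPM of all members (7.19) and was at 4.22, 3.21 and 3.29 CPM against 11.03 and 11.1 CPM (log2 -1.63 ± 0.22 SE, edgeR adjusted p = 0.00148). Mrpl58 (ICT1), a peptidyl-tRNA hydrolase built into the large subunit, was at 20.8, 20.2 and 17.9 CPM against 44.3 and 61.1 CPM, a log2 fold change of -1.42. Mrps30, which carries a small-subunit symbol although the protein belongs to the large subunit, had the longest transcripts of the members (3326 bases) and was at 32.4, 31.5 and 29.9 CPM against 42.3 and 72.2 CPM (log2 -0.87 ± 0.22 SE, edgeR adjusted p = 0.0173).

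Of the 18 Mrps genes listed as relatives of bacterial small-subunit proteins, Mrps18a included, 16 were called lower and 1 higher, with a median of -1.01. The fall of Mrps18c was the largest of the 78 genes. Its gene lies on chromosome 5 (GRCm38, chr5:100798627-100804471, plus strand), and its level was 11.6, 11.04 and 11.1 CPM in the VA-free mice against 40.9 and 50.02 CPM in the control mice. The values of the diets were far apart, with a 4.04-fold fall (log2 -2.01 ± 0.14 SE, edgeR adjusted p = 0.000254). Mammals have 3 relatives of bacterial S18, and the other two changed less. Mrps18a, whose protein was found in the large subunit, was at 38.0, 42.1 and 41.4 CPM against 73.0 and 68.1 CPM (log2 -0.80 ± 0.11 SE, edgeR adjusted p = 0.00172). Mrps18b was at 31.9, 31.0 and 29.9 CPM against 40.8 and 51.0 CPM (log2 -0.57 ± 0.14 SE, edgeR adjusted p = 0.0148). Neither Mrps18a (-0.11) nor Mrps18b (0.03) was called with the length trend removed. The difference between the 3 genes was not tested.

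In the head and the decoding region of the small subunit, 5 of 6 members were called lower, with a median of -0.82. Mrps14, a head protein and the fourth most abundant member (148 TPM), was at 40.1, 35.2 and 39.9 CPM against 105 and 146 CPM and fell 3.26-fold (log2 -1.71 ± 0.16 SE, edgeR adjusted p = 0.000451). Mrps12, the relative of the bacterial protein that guards decoding accuracy, fell 2.56-fold, from 46.8 and 51.8 CPM to 19.1, 19.0 and 19.6 CPM. Mrps7 fell less, from 65.6 and 61.7 CPM to 42.5, 40.7 and 43.3 CPM (log2 -0.60 ± 0.11 SE, edgeR adjusted p = 0.00476), and was at -0.30 and not called with the length trend removed. Mrps2 was one of only 2 members with a log2 fold change above 0, but its values overlapped, at 18.5, 12.3 and 12.0 CPM against 9.50 and 12.7 CPM (log2 0.36 ± 0.26 SE, edgeR adjusted p = 0.304). Outside this region, Mrps28 (140 TPM) was at 44.0, 44.2 and 44.4 CPM against 95.0 and 100.5 CPM, with a log2 fold change of -1.14. Mrps17 was at 48.4, 44.4 and 46.1 CPM against 68.1 and 63.2 CPM, with -0.50.

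The 9 members listed as small-subunit proteins without a bacterial counterpart had 5 called lower and a median of -0.62. Mrps33 fell 2.99-fold, from 69.2 and 85.3 CPM to 27.4, 24.6 and 25.5 CPM (edgeR adjusted p = 0.000368). Mrps26 was at 30.1, 29.0 and 27.1 CPM against 54.1 and 42.5 CPM (log2 -0.75, edgeR adjusted p = 0.00601), and at -0.32 and not called with the length trend removed. Mrps27, a protein with RNA-binding repeats, was at 39.3, 35.5 and 35.1 CPM against 35.8 and 54.3 CPM and was not called (edgeR adjusted p = 0.249). Mrps23, Mrps25 and Mrps35 were the other three of this group not called, with log2 fold changes of -0.46, -0.38 and -0.25. Outside the structural groups, Mrps36, which carries the family's name but is known as a subunit of the 2-oxoglutarate dehydrogenase complex of the citric acid cycle, was at 12.6, 12.2 and 12.5 CPM against 24.5 and 26.1 CPM. It fell 2.03-fold (log2 -1.02 ± 0.14 SE, edgeR adjusted p = 0.00159), a call that was lost once the length trend was removed (log2 -0.31, edgeR adjusted p = 0.15).

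Mrps5, a small-subunit protein at the path by which the mRNA enters, went the other way. Its gene lies on chromosome 2 (GRCm38, chr2:127587222-127606829, plus strand), and it was at 44.0, 45.4 and 44.2 CPM in the VA-free mice against 34.5 and 26.6 CPM in the control mice. All VA-free libraries (43.0 to 45.3 CPM) were above all control libraries (21.7 to 33.5 CPM). Mrps5 was 1.46-fold higher (log2 0.54 ± 0.15 SE, edgeR adjusted p = 0.0225). It was called in 19 of 26 other settings, with log2 fold changes from 0.36 to 1.25, and the call was lost when any VA-free mouse or library control 2B was left out. Without library control 2A, in which Mrps5 was lowest, it was still called.

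**Figure D3:**
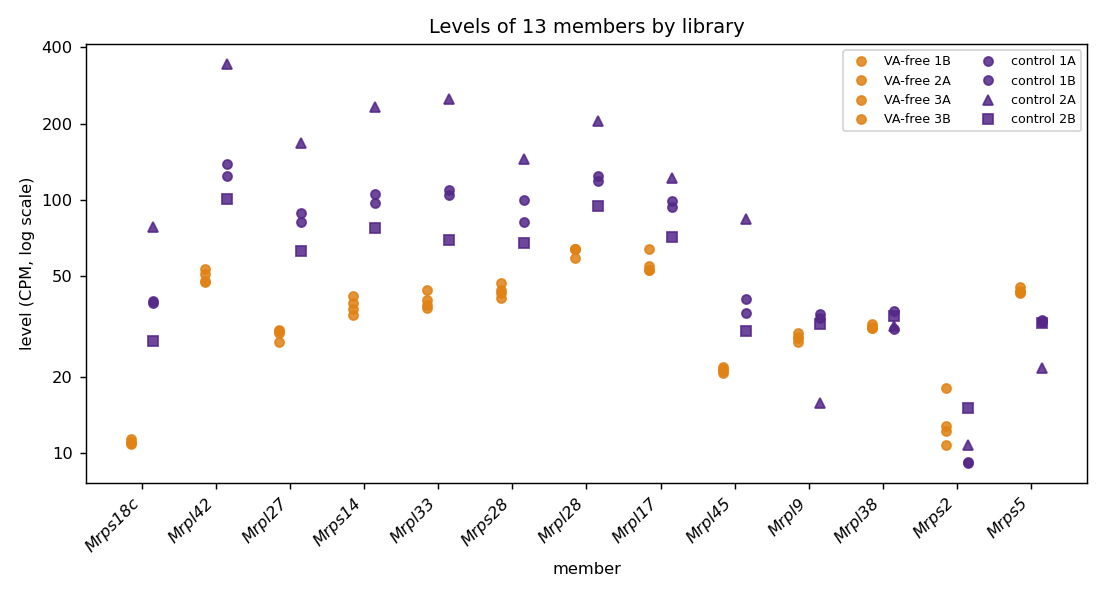
Levels of 13 members in each library (y axis, CPM on a log scale; x axis, gene), VA-free libraries in orange and control libraries in purple, with control 2A as triangles and control 2B as squares. For Mrps18c the VA-free libraries lie at 10.9 to 11.3 CPM and the control libraries at 27.9 to 78.6 CPM, and for Mrps5 the VA-free libraries lie above the control libraries.

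Library control 2A stood apart for these genes. Against control 2B, which was made from RNA of the same mouse, its members were higher by a median of 0.84 on the log2 scale, and 11 of 78 were lower in 2A, while the median of all genes was -0.05. The technical replicates of control 1 differed by a median of 0.12 over the members and those of VA-free 3 by 0.05. Mrps18c, for example, was at 78.6 CPM in control 2A and at 27.9 CPM in control 2B, and Mrpl42 at 344 and 101 CPM. Control 2A also had the highest summed level of macrophage markers (963 CPM) and the lowest of MuSC markers (1937 CPM). Of the control libraries it was also the lowest for endothelial (1278 CPM), Schwann cell (1050 CPM), tenocyte (606 CPM) and fibro-adipogenic progenitor markers (9411 CPM). The same held for pericyte and smooth muscle (2728 CPM) and erythroid markers (1302 CPM). For myofiber markers control 2A and 2B were nearly equal (601 and 600 CPM). Both libraries came from the split RNA of the same sorted cells. The difference between 2A and 2B had a weak Spearman correlation with transcript length, of -0.31 across all genes and -0.23 across the members. For the technical replicates of control 1 these values were -0.14 and -0.01, and for those of VA-free 3 they were -0.07 and -0.20. Without control 2A, 63 members were called lower and 1 higher, with a median of -0.81, and without control 2B 59 were called lower and none higher, with a median of -1.24. The median was thus below 0 with either library left out, and 74 members were below 0 without 2A and 75 without 2B.

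The members are short, and transcripts of 600 to 1500 bases in general were lower on the VA-free diet. The abundance-weighted transcript length of the members was between 418 and 3326 bases, with a median of 927 bases beside 2122 bases for all genes tested. Across all genes the log2 fold change rose with length (Spearman 0.38, 0.36 per doubling of length), and across the 78 members it did so too (Spearman 0.56, 0.42 per doubling). These are correlations across genes of the same 5 mice, and genes are not independent replicates. Among the 13478 genes within the members' range of lengths 26.4% were called lower, and among the 2927 genes within the quartiles of the members' length 45.4% were, with a median of -0.64. The trend did not hold for the shortest genes. Up to 600 bases the median of all 942 genes was -0.48, with 25.5% called lower, and that of the 4 members was -1.62. In the bin from 600 to 800 bases the median of all genes was -0.90 and that of the 21 members was -1.36. Of those 21 members 17 lay below the median of all genes. Between 1000 and 1500 bases the medians were -0.48 and -0.75, with 19 of 24 members below. The 5 members between 2000 and 3000 bases had a median of -0.74 where all genes had 0.14. In every bin that held members their median lay below that of all genes. GC content showed no such trend, with a Spearman correlation of -0.07 across the members.

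**Figure D4:**
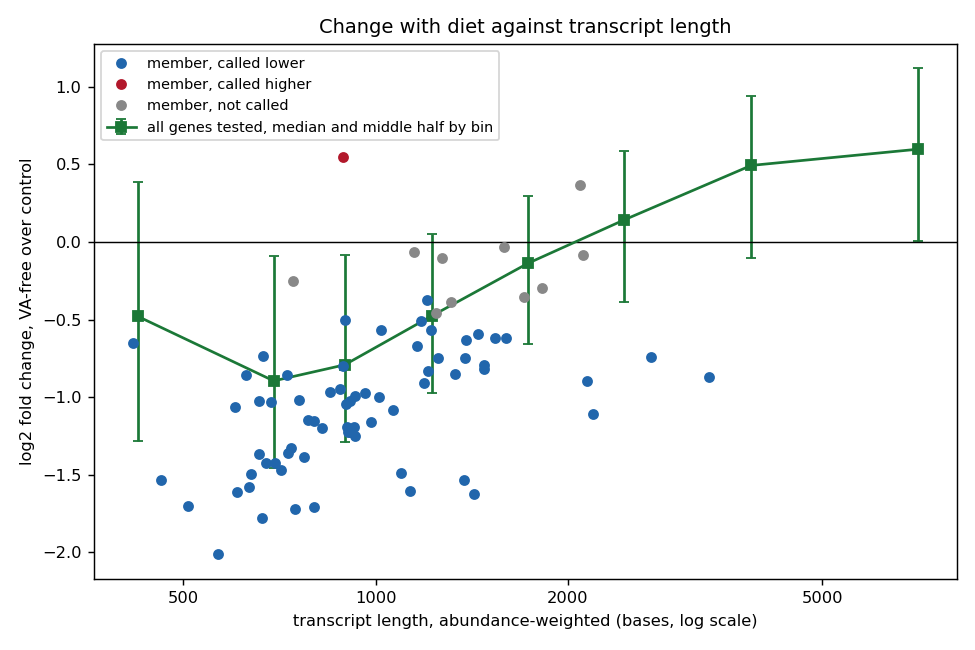
Log2 fold change (y axis, VA-free over control) against abundance-weighted transcript length (x axis, bases on a log scale). Circles are the 78 members, blue where called lower, red where called higher and grey where not called. Green squares with bars are the median and quartiles of all genes tested by length bin. The square for up to 600 bases is at -0.48. From there on the squares rise from -0.90 at 600 to 800 bases to 0.49 at 3000 to 5000 bases, and most circles lie below them.

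When the trend of each mouse with transcript length was removed, the difference shrank but did not vanish. The trend itself was nearly gone over all genes (Spearman -0.02), but not over the 9559 genes averaging 10 CPM or more. For those it went from 0.62 to 0.18, and from 0.60 to 0.13 per doubling of length. Only 3 members averaged under 10 CPM. Across the members a Spearman correlation of 0.15 was left, or 0.32 by the longest protein-coding transcript. How much this remaining trend adds to the values below was not tested. The median of the members moved to -0.41, 68 of 78 stayed below 0, and 34 were called lower where 17.5% of all genes were. These 34 were all among the 67 members called lower before. They were 13 of the 30 and 11 of the 20 large-subunit members with and without bacterial relatives, and 8 of the 18 and 2 of the 9 listed for the small subunit. By region, 5 of 8 members of the central protuberance, 2 of 6 of the stalks and 2 of 6 of the head were still called lower. Mrps5 (log2 1.23) and Mrpl38 (log2 0.44, edgeR adjusted p = 0.0341) were called higher, where 12.0% of all genes were. Mrps18c (-1.34), Mrpl42 (-1.08), Mrpl33 (-1.05), Mrpl27 (-1.01) and Mrps14 (-0.99) were still called lower. The long members moved the other way, since their length class was higher on the VA-free diet. Mrps30 went from -0.87 to -1.30, Mrpl45 from -1.11 to -1.19, Mrpl1 from -0.74 to -1.01 and Mrpl39 from -0.90 to -0.97, and all 4 were called lower both ways. In contrast Mrpl17 (-0.02), Mrps18b (0.03), Mrps17 (0.18), Mrpl4 (0.09) and Mrpl12 (-0.03) were near 0 and not called once the trend was removed. Without the trend the count also depended on 1 library, with 25 members called lower without control 2A and 18 without control 2B. With these last 2 settings left out, a set of 12 members was called lower in each other setting that tested them. They were Mrps18c, Mrpl42, Mrpl27, Mrps14, Mrpl33, Mrpl46, Mrps21, Mrpl35, Mrpl18, Mrpl45 and Mrpl39 in 26 settings. Mrpl44, which a filter at 10 CPM left out, was called in 25.

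The other proteins of the mitoribosome, which have names of their own, were divided. Chchd1, Aurkaip1 and Gadd45gip1 were called lower (log2 -1.33, -1.07 and -1.04), whereas Dap3, a GTP-binding protein of the small subunit, was at a mean of 62.0 ± 2.39 CPM (SD, n = 3) against 59.8 ± 3.50 CPM (SD, n = 2) and Ptcd3 at 61.7 ± 3.42 against 59.0 ± 26.5 CPM, and neither was called. After removal of the length trend the first 3 were still called lower, and Dap3 was called higher (log2 0.48). Of 15 translation factors and mRNA-binding proteins tested, 4 were called lower and 2 higher, with a median of -0.05. These shares, and those of the assembly factors below, are near the 22.5% lower and 18.9% higher of all genes and say nothing particular about the lists. Slirp, which binds mitochondrial mRNAs together with Lrpprc, fell (log2 -1.69) while Lrpprc rose (log2 0.70). With the length trend removed Slirp was at -1.07 and still called, and Lrpprc was at 0.15 and not called. The ribosome recycling factor Mrrf (-0.90), the elongation factor Tsfm (-0.84) and the initiation factor Mtif3 (-0.74) fell, and the elongation factor Gfm1 rose (0.41). Mrrf (-0.79) and Gfm1 (0.43) were still called with the length trend removed, and Tsfm (-0.26) and Mtif3 (-0.38) were not. Of 28 assembly and rRNA-processing factors, 6 were called lower, including Mpv17l2 (-1.33), Ddx28 (-1.06) and Malsu1 (-0.94), and 4 higher, including the RNA helicase Dhx30 (1.03) and the RNA granule protein Grsf1 (0.52). Of these 5, Malsu1 lost its call with the length trend removed (-0.22). Of 20 mitochondrial aminoacyl-tRNA synthetases and amidotransferase subunits, which charge the tRNAs of this ribosome, 6 were called higher and 1 lower. Among all genes 18.9% were called higher and 22.5% lower. With the length trend removed 5 of the 20 were called higher and 0 lower, beside 12.0% and 17.5% of all genes. Lars2 had the largest rise of the list, from a mean of 455 to 1088 CPM (log2 1.26 ± 0.18 SE, edgeR adjusted p = 0.00201). Iars2 rose from a mean of 44.1 to 90.5 CPM (log2 1.04 ± 0.13 SE, edgeR adjusted p = 0.00105), and Vars2 rose by 1.08, Aars2 by 0.92 and Ears2 by 0.88 on the log2 scale. These synthetase genes are longer than the members, with a median transcript length of 1978 bases. The technical replicates of control mouse 2 differed widely in most of these genes, so that their control means are uncertain. Control 2A and 2B held 6388 and 34815 estimated counts of Lars2, 1066 and 3198 of Iars2, and 99 and 1285 of Vars2. For Aars2 they held 332 and 1072, and for Ears2 468 and 638.

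Larger families of the same pathway or build served for comparison. Among all genes 22.5% were called lower and 18.9% higher, and with the length trend removed 17.5% and 12.0%. The 13 mitochondrially encoded proteins, the products of this ribosome, were all called lower, with a median log2 fold change of -2.56. With the length trend removed all 13 were still called lower (median -2.20). Of 83 nuclear-encoded OXPHOS subunits, with which those products assemble, 73 were called lower and 2 higher (median -1.29), and 56 were called lower with the length trend removed (median -0.61). Of 88 cytosolic ribosomal proteins, 34 were called lower and 2 higher, with a median of -0.32, although their transcripts were shorter (median 661 bases) than those of the members. With the length trend removed they turned, with a median of 0.31, 34 called higher and 2 lower, while the median of the members stayed below 0 (-0.41). The differences between families were not tested.

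**Figure D5:**
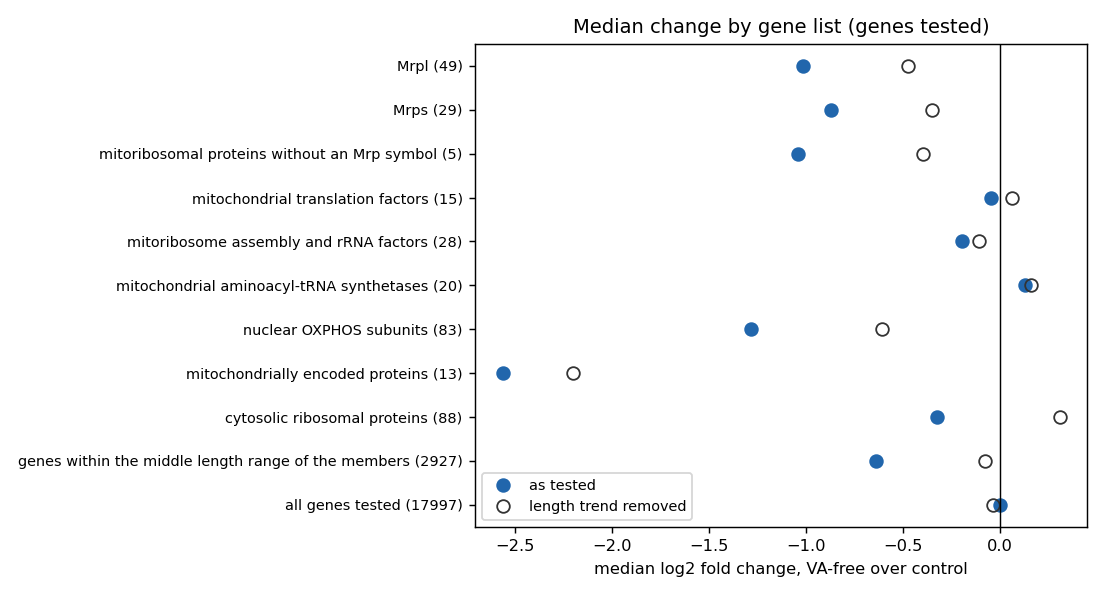
Median log2 fold change of each gene list (x axis, VA-free over control; y axis, list with the number of genes tested), as tested (filled) and with the length trend removed (open). The Mrpl (-1.02) and Mrps (-0.87) genes and the OXPHOS subunits lie below 0 in both, the translation and assembly factors and the synthetases lie near 0, and the cytosolic ribosomal proteins change sign from -0.32 to 0.31.

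A member's reads were spread over several transcripts, 343 in all. Transcripts annotated as not protein coding held 19.1% to 19.8% of the members' counts in the VA-free libraries and 17.4% to 19.2% in the control libraries. Transcripts with a retained intron held 8.14% to 8.93% against 5.67% to 7.30%. For Mrps6 the share on transcripts that do not code for protein was 28.4% to 47.0% in the VA-free libraries and 4.09% to 11.9% in the control libraries. For Mrps18a it was 12.4% to 16.4% against 0.225% to 6.51%. In Mrpl51 the share was lower on the VA-free diet, at 63.5% to 67.5% against 73.7% to 82.8%. These shares were not tested between the diets. When only protein-coding transcripts were counted, 60 members were called lower and 1 higher, with a median of -0.92. An exon of 28 members overlapped a gene on the opposite strand, from which reads cannot be told apart where libraries carry no strand, and 23 of them were called lower, as were 44 of the 50 without such an overlap. One processed pseudogene, Mrpl23-ps1, held more counts than the gene it copies, with 56.9 to 61.8 CPM in the VA-free libraries and 102 to 220 CPM in the control libraries (log2 -1.33 ± 0.10 SE, edgeR adjusted p = 0.000274), where Mrpl23 had 9.22 to 11.6 and 14.6 to 37.7 CPM. Reads of near-identical copies can be split between them, so the level of Mrpl23 is uncertain, while gene and copy together were at 67.3 to 73.1 CPM against 116 to 257 CPM. The other 4 pseudogenes had at most 3.73 counts in a library.

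Mitoribosomal protein genes often start back to back with another gene. In the GENCODE M21 annotation 23 of the 78 members (29.5%) had a protein-coding gene on the opposite strand that started within 1000 bases upstream or overlapped their start by under 200 bases, beside 10.1% of the protein-coding genes tested. Of these 23 neighbours 5 were called lower and 6 higher, with a median log2 fold change of 0.09, beside 22.5% and 18.9% of all genes. Mrpl51 fell (-1.04) while its neighbour Ncapd2, a condensin subunit, rose (1.02), and Mrps18c (-2.01) stood beside Helq (0.09, not called), a DNA helicase whose start is 29 bases away. Mrpl30 and Mitd1 fell together (-0.85 and -0.84), as did Mrpl36 and Ndufs6, a complex I subunit (-1.19 and -1.57), and Mrpl49 and Fau, which encodes a cytosolic ribosomal protein (-0.62 and -0.56). The exon-free stretches upstream of 4 members are printed here because they show the kinds of start involved, from RefSeq promoters of GRCm38.p6 on the strand of the member. They belong to Mrpl17, the most abundant member with an NRF1 motif (chr7:105811100-105811259, minus strand), to Mrpl30 and Mrpl49, where the stretch is all that separates them from Mitd1 and Fau (chr1:37890412-37890476, plus strand, and chr19:6057786-6057843, minus strand), and to Mrps5, the member that rose (chr2:127587176-127587221, plus strand). Capitals mark matches to the SP motif and, in the last capital run of Mrpl17, to the NRF1 motif. Only matches inside a printed stretch are marked. The promoters held others outside it, to the NRF1 motif for Mrpl30, to the SP motif for Mrpl49, and to the NRF1, ETS and SP motifs for Mrpl17. The stretch of Mrps5 ends 204 bases before its RefSeq start.
Mrpl17: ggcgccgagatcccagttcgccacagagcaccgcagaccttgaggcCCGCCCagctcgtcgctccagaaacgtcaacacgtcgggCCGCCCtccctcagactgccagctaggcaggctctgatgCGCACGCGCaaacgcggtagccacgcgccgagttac
Mrpl30: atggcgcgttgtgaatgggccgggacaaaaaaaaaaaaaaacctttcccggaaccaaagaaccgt
Mrpl49: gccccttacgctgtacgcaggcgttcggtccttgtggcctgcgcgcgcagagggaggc
Mrps5: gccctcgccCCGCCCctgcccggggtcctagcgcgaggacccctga

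Promoters of 250 bases before to 50 bases after the start were found for 69 of the 78 members and searched on both strands. The core of the motif of NRF1, a factor known for nuclear genes of mitochondria (GCGCNTGCG), was in 18 of them (26.1%), beside 7.12% of the 27025 genes with a promoter in the table and 12.8% of the 12562 of those that were also tested. CCGGAAG, bound by ETS factors such as GABPA, was in 26 (37.7%), beside 9.93% and 16.8%. AANATGGCG, a form of the YY1 motif, was in 11 (15.9%), beside 2.76% and 4.86%, and GGGCGG of the SP family was in 34 (49.3%), beside 38.2% and 62.2%. The median log2 fold change was -0.80 for the 18 members with the NRF1 letters and -1.02 for the 51 without, and -1.04 for the 26 with the ETS letters and -0.97 for the 43 without. It was -1.22 for the 11 with the YY1 letters and -0.97 for the 58 without, and -1.02 for the 34 with the SP letters and -0.90 for the 35 without, and none of these differences was tested. No promoter of a member held 2 exact direct copies of AGGTCA spaced by 1, 2 or 5 bases, a strict form of the elements of retinoid receptors. These exact letters were in at most 0.0481% of all genes for each spacing, and other forms of the element were not searched. The search therefore cannot tell whether the members hold such elements. Matches of letters are a description and do not show that a factor is bound.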

How the data were processed

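GFP-positive MuSCs were sorted into Trizol, RNA of each mouse was split into technical replicates at the spin column, samples of high RNA integrity were kept, and SMART-Seq v4 cDNA was made into Nextera XT libraries and read from a single end. The authors used FastQC and Kallisto 0.46.2 with Ensembl 96 (GRCm38) and deposited estimated counts for every transcript in each library, which were not normalized. Their deposited TPM values, made by the authors from the same estimates, are scaled for effective length and keep no depth. For the comparison the study names tximport and DESeq2.

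Estimated counts of 116816 transcripts were added per gene and per mouse and rounded, which left out 0.647% to 0.756% of a library's counts, on transcripts without a gene. For 3 against 2 mice, edgeR 4.0.16 (R 4.3.3) gave the quasi-likelihood test after TMM scaling and its expression filter, with p-values adjusted by Benjamini-Hochberg and a threshold of 0.05, after a test on simulated data. Standard errors are the log2 fold change divided by the square root of F, and CPM is TMM-normalized. Libraries held 44831232 or more counts, and for 15 members the SD of the VA-free mice was below the counting error alone. The length trend was removed per mouse with an offset from a lowess curve (span 0.3) of counts on log2 transcript length. Alternatives were other scalings and filters, DESeq2 1.42.0, limma 3.58.1 (voom, or log2 TPM with a pseudocount of 1 or 0.1), libraries kept apart, length offsets, coding transcripts only, a replicate block, and omission of single mice or libraries.

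The members, lists and tests were chosen with earlier results of these data known, and 2 of the alternatives were added after the members' own values had been seen. Named with values are the 6 members of highest TPM, the 5 highest and 5 lowest log2 fold changes, those called higher, the 3 of highest CPM in each structural group, Mrps36 and the Mrps18 genes. The other members named were chosen after their values were seen. One symbol (Mtrfr) was not matched in the tables, and no protein sequences were used here.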

Additional observations from a re-analysis of the deposited data

Results flagged for a closer look

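In the 4 libraries of a diet, a library was far from the others (Dixon's criterion) for 6 of 66 sets of values checked, namely the summed level and the levels of 32 members on each diet. For independent values chance gives about 1 in 20, or 3.3 of 66. The values here are not independent, since libraries share mice and the genes share libraries, so this number is only a rough mark. Library control 2A made up 5 of the 6. It was high for Mrpl42 (344 CPM, the other control libraries at 101 to 138 CPM), Mrps18b (69.1 CPM, 38.2 to 40.0 CPM) and Mrps27 (78.3 CPM, 30.6 to 38.1 CPM). It was low for Mrpl9 (15.7 CPM, 32.2 to 35.6 CPM) and Mrps5 (21.7 CPM, 32.7 to 33.5 CPM). The sixth was Mrpl28 in VA-free 1B (58.8 CPM, 63.9 to 64.2 CPM).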

How the results depend on the processing

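The median of the members was below 0 in every setting tried, from -0.31 to -1.24, and 64 members had a negative log2 fold change in all 27 settings, the reported one included and the 2 added ones left out. With the length trend removed 34 members were called lower and 2 higher (median -0.41), and on log2 TPM with a pseudocount of 1 or 0.1 there were 49 lower and 2 higher in each (medians -0.58 and -0.59), where the median of all genes moved to 0.19 and 0.35, so that relative to it the members were at -0.77 and -0.95. Medians also moved by more than the pooled SD between mice (0.04) with a mean of at least 10 CPM (-1.05), 8 separate libraries (-1.02), 1 library per mouse (-1.19) and coding transcripts only (-0.92). None was called higher with 1 library per mouse, an effective-length offset or the replicate block (0 each). Deviations of same-numbered mice from the mean of their diet were hardly correlated across genes (-0.02 and 0.01). With 2 control mice these values are not independent, and they cannot show whether the mice were handled in pairs. The block gave 56 lower and 0 higher (median -0.97). With the length trend also removed it gave 14 lower and 1 higher (median -0.40) and 2351 genes called in all, against 7459 as reported. Leaving out 1 mouse or library gave 59 to 67 lower, 0 or 1 higher, medians from -0.81 to -1.24 and 4476 to 7744 genes called. In the 2 settings added after seeing the data, the length trend was removed without control 2A (25 lower, median -0.31, 4924 genes) or 2B (18 lower, median -0.54, 2262 genes). Across genes with at least 10 CPM the correlation with length was 0.62 instead of 0.38. On log2 TPM 31.3% and 31.0% of all calls were lower, against 54.4% as reported. Of 32 named members, 6 changed sign where a call was involved, all under length or TPM settings. With the length trend removed these were Mrpl38 (0.44), Mrpl4 (0.092), Mrps17 (0.18) and Mrps18b (0.033), with the block as well Mrpl17 (0.026), Mrpl4 (0.092), Mrps17 (0.19) and Mrps18b (0.071), without 2A Mrpl17 (0.092), Mrpl48 (0.079), Mrps17 (0.21) and Mrps18b (0.16), and without 2B Mrpl4 (0.20) and Mrps17 (0.13). On log2 TPM they were Mrpl38 (0.52 and 0.53) and Mrpl4 (0.075 and 0.076). Named members that were not called either way changed sign in 2 to 12 settings for Mrpl10, Mrpl38, Mrpl50, Mrpl9 and Mrps27. The cause of the changes was not tested.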
